A study of Mus musculus with 6 samples.

Results

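Interferon-stimulated genes are the genes that cells switch on when they sense interferon, and the set described here was chosen as a list of 39 mouse symbols that encode antiviral effectors, RNA sensors, the transcription factors that drive them and parts of the antigen-processing machinery. Each symbol was looked up in the platform's annotation, and 37 of the 39 were measured, among 19505 genes in all. No member had more than 1 probe set. Ifi44 and Rigi have no probe set of that symbol and are not counted. The RNA sensor RIG-I is annotated under its older symbol Ddx58, and its values are given beside the other sensors.

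The samples were salivary glands of mouse embryos at a stage that the labels write as T13, with no genotype or strain stated, kept in culture for 72 hours. The control group (controls 1 to 3) was treated with nothing, and the treated group (TGF-β1 1 to 3) with TGF-β1, a cytokine whose receptors activate Smad proteins and which restrains many immune responses. Total RNA was extracted with Trizol and labelled with biotin from 6 µg for Affymetrix arrays, 1 array per sample. The sources used here do not give the type of salivary gland or the dose of TGF-β1. Nor do they say whether replicates were separate cultures or animals, so the p-values measure only how far these samples spread, and that spread may be technical. In such bulk samples, fewer cells of a type and less RNA per cell cannot be told apart.

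Type I interferons, such as interferon-β, bind a receptor made of Ifnar1 and Ifnar2, and the kinases Jak1 and Tyk2 then set off assembly of the factor ISGF3, which contains Stat2 and Irf9. ISGF3 binds the interferon-stimulated response element (ISRE) in the promoters of many of these genes, and Irf1 and Irf7 bind closely related sites. Type II interferon, interferon-γ, acts through another element, the gamma-activated site (GAS), and Irf1 is its textbook early target. Many of the members also keep a low, constant level in unstimulated tissue through weak tonic interferon signalling.

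The promoters were searched for the letters of these elements. RefSeq windows of the mouse assembly GRCm38.p6, each 300 bases long from 250 bases before the start of transcription to 50 after it, were available for 29 of the 37 measured members. The ISRE was searched as GAAANNGAAA, which reads TTTCNNTTTC on the other strand, and the GAS as TTCNNNGAA, which reads the same on both strands. An ISRE stood in a window of 14 of the 29 members (48.3%) and of 3.99% of all 27025 genes in the table. A GAS stood in 8 of the 29 (27.6%), against 9.55% of all genes, and either motif in 18 of the 29 (62.1%), against 12.9%. The 140 bases before the start are printed 5′ to 3′ on the gene's own strand for 8 chosen members. Irf1, Gbp7 and Gbp2 are among those that differed between the groups in the results below, and Gbp3 lies beside Gbp7. Bst2 and Trim30a are among those that differed widely between the TGF-β1 arrays, and Isg15 and Ifit1 are textbook ISRE genes. These 8 do not stand for the set, because 15 of the 29 members with a window had no ISRE in it. Samd9l and Psmb9, which differed more between the TGF-β1 arrays than Bst2, are among those 15. Capitals mark ISRE and GAS matches, which overlap in Bst2, and a match is a run of letters, not a measured binding site.
Irf1: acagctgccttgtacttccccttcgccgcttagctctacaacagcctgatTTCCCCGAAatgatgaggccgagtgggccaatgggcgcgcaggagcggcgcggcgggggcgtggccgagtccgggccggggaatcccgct
Gbp7: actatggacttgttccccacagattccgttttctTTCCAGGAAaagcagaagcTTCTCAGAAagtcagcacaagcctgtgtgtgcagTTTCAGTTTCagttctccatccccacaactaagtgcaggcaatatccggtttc
Gbp3: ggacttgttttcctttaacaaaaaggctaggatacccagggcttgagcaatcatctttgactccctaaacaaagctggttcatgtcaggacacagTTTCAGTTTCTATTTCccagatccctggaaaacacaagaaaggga
Gbp2: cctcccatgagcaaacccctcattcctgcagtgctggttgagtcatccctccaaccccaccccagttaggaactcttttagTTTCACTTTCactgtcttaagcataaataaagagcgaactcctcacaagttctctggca
Isg15: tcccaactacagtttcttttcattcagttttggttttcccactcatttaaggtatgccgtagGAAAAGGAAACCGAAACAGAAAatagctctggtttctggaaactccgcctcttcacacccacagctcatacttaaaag
Ifit1: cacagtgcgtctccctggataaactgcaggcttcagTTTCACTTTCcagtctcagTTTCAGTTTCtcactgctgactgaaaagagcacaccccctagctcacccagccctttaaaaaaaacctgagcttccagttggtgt
Bst2: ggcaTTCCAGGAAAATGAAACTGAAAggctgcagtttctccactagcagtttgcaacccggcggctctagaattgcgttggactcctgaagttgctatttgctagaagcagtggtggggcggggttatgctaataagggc
Trim30a: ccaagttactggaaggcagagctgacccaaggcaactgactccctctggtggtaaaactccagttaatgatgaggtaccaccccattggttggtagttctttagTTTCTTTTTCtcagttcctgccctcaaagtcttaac

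Irf1 lies on the plus strand, its window runs along chr11:53769874-53770013, and its only match is a GAS that begins at position -90. Gbp7 (chr3:142530196-142530335, plus strand) holds both kinds of motif, with an ISRE at position -53 and the first of its GAS matches at position -106. Gbp3 (chr3:142559904-142560043, plus strand) and Gbp2 (chr3:142620523-142620662, plus strand) hold ISRE matches that begin at positions -45 and -59. Isg15 (chr4:156200819-156200958, minus strand) and Ifit1 (chr19:34640749-34640888, plus strand) carry runs of ISRE letters that begin at positions -78 and -104. Bst2 (chr8:71537473-71537612, minus strand) has its first ISRE at position -130, and Trim30a (chr7:104465194-104465333, minus strand) has one at position -36.

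One array stood apart before any gene was compared. Control 3 correlated with the other arrays at 0.550 to 0.601 over all genes and had an interquartile range of 2.05 on the log2 scale, against 3.17 to 3.26 in the others. Housekeeping genes were low in that array: Actb, the cytoskeletal β-actin, was at 8.91 against 12.70 to 13.34 elsewhere, and Gapdh, a glycolytic enzyme, at 6.21 against 11.87 to 11.98. Control 3 was the lowest array for 8 of 12 epithelial and 7 of 9 mesenchymal markers of the gland (66.7% and 77.8%, against 32.4% of all genes). Examples were Epcam at 6.40 against 8.93 to 10.27 and Dcn at 7.18 against 12.37 to 13.22. It was not the lowest for the epithelial Aqp5 or the mesenchymal Col1a1. Control 3 was the highest array for 51.9% of all genes, and its lower quartile was 5.79 against 5.11 to 5.15 in the others. TGF-β1 3 also differed from its group, with a highest correlation of 0.953 where controls 1 and 2 and TGF-β1 1 and 2 reached 0.989 to 0.990. Results are therefore given with all arrays, with limma's array weights (0.0338 for control 3, 0.398 for TGF-β1 3 and 1.65 to 4.52 for the others), and without control 3 and TGF-β1 3. All values are the deposited log2 expression values, so a difference of 1 is a doubling; detection calls were not used, and 13 members lay below the lower quartile of the array in both TGF-β1 1 and TGF-β1 2, where differences are less certain (Irf7, Oas1a, Oas3, Oasl1, Ifit1, Ifit2, Parp9, Mx1, Mx2, Rsad2, Trim30a, Samd9l and Rtp4). Levels of different genes are not compared because each has its own probes.

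The interferon-stimulated genes were low in TGF-β1 1 and TGF-β1 2, intermediate in controls 1 and 3, and high in control 2 and above all in TGF-β1 3. The median level over the 37 members was 5.73, 6.61 and 6.27 in controls 1 to 3 and 5.44, 5.53 and 7.55 in TGF-β1 1 to 3, while the median over all genes stayed between 6.77 and 6.83. TGF-β1 3 was the highest of the 6 arrays for 27 of the 37 members (73.0%), against 19.1% of all genes, and it exceeded controls 1 and 2 and TGF-β1 1 and 2 for 31 (83.8%), against 31.2%. TGF-β1 1 and 2 both lay below controls 1 and 2 for 18 members (48.6%), against 23.0% of all genes. Control 2 exceeded control 1 for 35 members (94.6%), against 52.4% of all genes, and the exceptions were Mx1 and Gbp2.

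**Figure D1:**
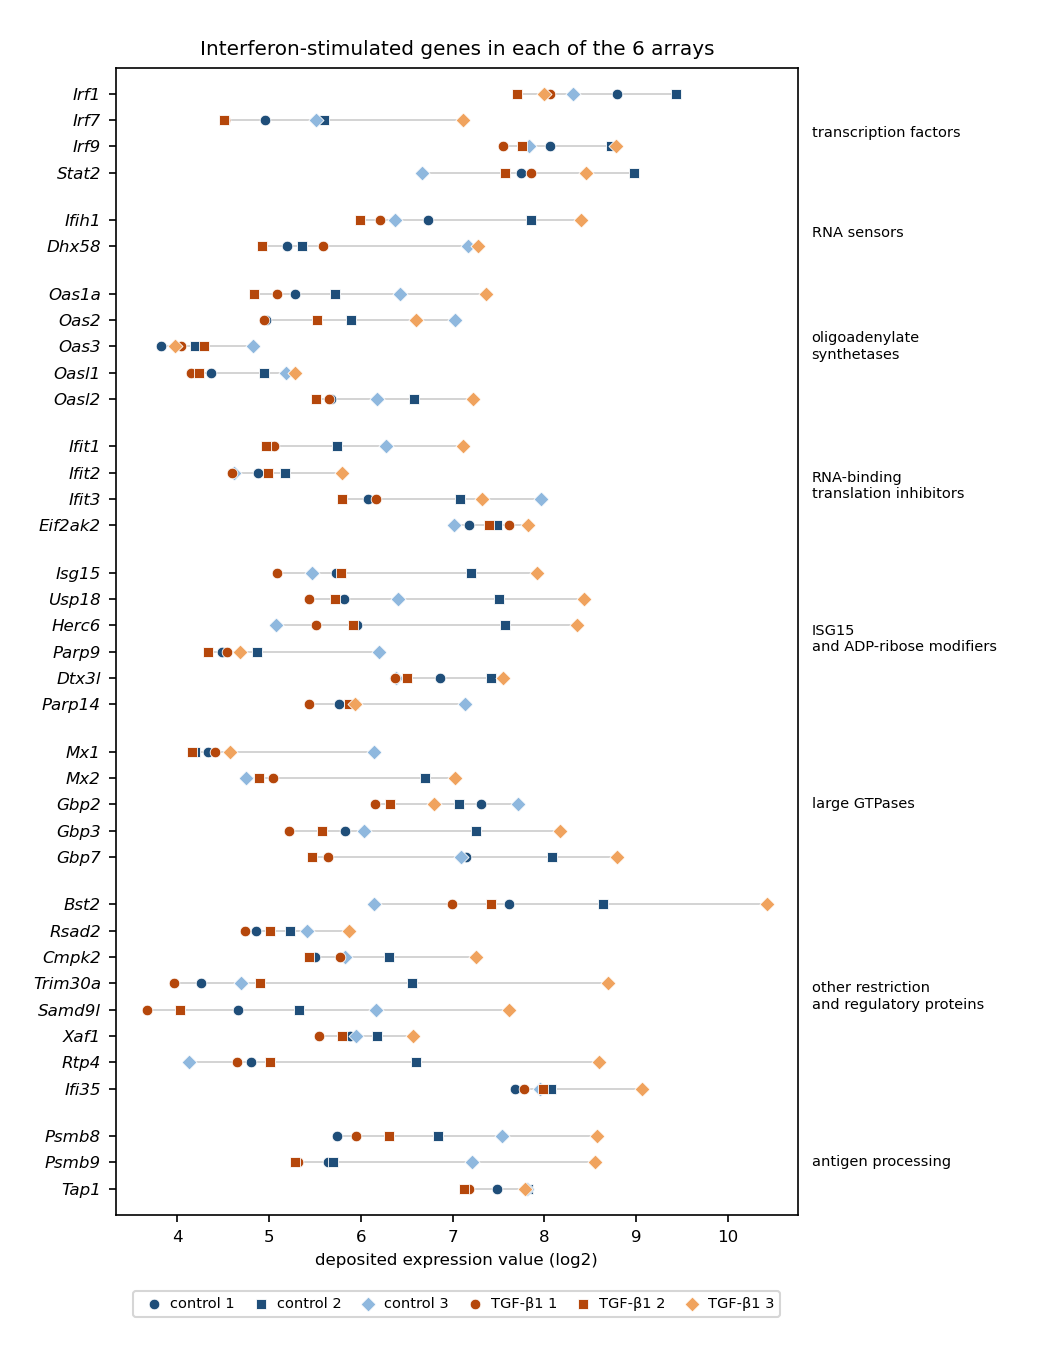
Deposited log2 value (horizontal axis) of each of the 37 measured interferon-stimulated genes in the 6 arrays, grouped by the role of the protein; blue symbols are controls, orange ones TGF-β1 arrays, each symbol is 1 array and the grey line spans a gene's range. TGF-β1 3 (light orange diamonds) holds the highest value for 27 of the 37 genes, and TGF-β1 1 and 2 both lie below controls 1 and 2 for 18.

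Whether TGF-β1 changed the set was tested gene by gene over the whole table. With all 6 arrays weighted equally, 0 of the 37 members passed an adjusted p of 0.05 in limma (0% of all 19505 genes passed). In that fit 2 members had an unadjusted p under 0.05, as did 389 of the 19505 genes. With array weights, 6 members fell (16.2%, against 3.44% of all genes lower) and 0 rose (against 3.45% higher): the transcription factors Irf1 and Irf9, the RNA sensor Ifih1, the ubiquitin ligase Dtx3l and the GTPases Gbp2 and Gbp7. A further 14 of the 20 members with an unadjusted p under 0.05 in that fit (3997 of the 19505 genes had one) did not pass. The count rested on few arrays: it was 0 without control 1, without control 2, without TGF-β1 1 or without TGF-β1 2, settings in which 0% of all genes passed lower, 2 without TGF-β1 3 (Gbp2 and Gbp7, where 1.03% of all genes passed lower), and 2 without control 3 (Irf1 and Gbp2, where 1.53% of all genes passed lower and 1.26% higher). Without both control 3 and TGF-β1 3, limma passed 3 members, all lower (Irf1, Gbp2 and Gbp7), where 1.45% of all genes passed lower and 1.14% higher.

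The size of the group difference depended on how TGF-β1 3 was counted. The median difference over the members, TGF-β1 minus control, was -0.04 with equal weights (all genes -0.14), -0.65 with array weights (all genes 0.01) and -0.55 without control 3 and TGF-β1 3 (all genes 0.01). The weighted difference was below 0 for 33 of the 37 (89.2%, against 49.1% of all genes). Markers of the gland's cell types also moved in the same weighted fit, where 3.45% of all genes rose and 3.44% fell. Of 12 epithelial markers 5 rose (list median 0.74), while the keratins Krt5, Krt14, Krt15 and Krt19 were at -0.59 to -0.37 and did not pass. Of 9 nerve and Schwann cell markers listed, 5 were measured and 4 rose (0.66), with Sox10 standing in both lists. Among 9 mesenchymal markers 1 fell (-0.42), as did 1 of 8 endothelial (-0.05) and 1 of 3 erythroid markers (-0.30). Their part in the members' difference was not tested. After quantile normalization the members' weighted difference was below 0 for 32 of them with a median of -0.42 (all genes 0.006). After each array was centred on its median it was below 0 for 30 members with a median of -0.23 (all genes 0.009). In 35 members the 2 groups overlapped when all arrays were counted; in the other 2, Irf1 and Gbp2 (5.41%, against 5.78% of all genes), every TGF-β1 array lay below every control, and in 0 members (against 5.80%) did every TGF-β1 array lie above.

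**Figure D2:**
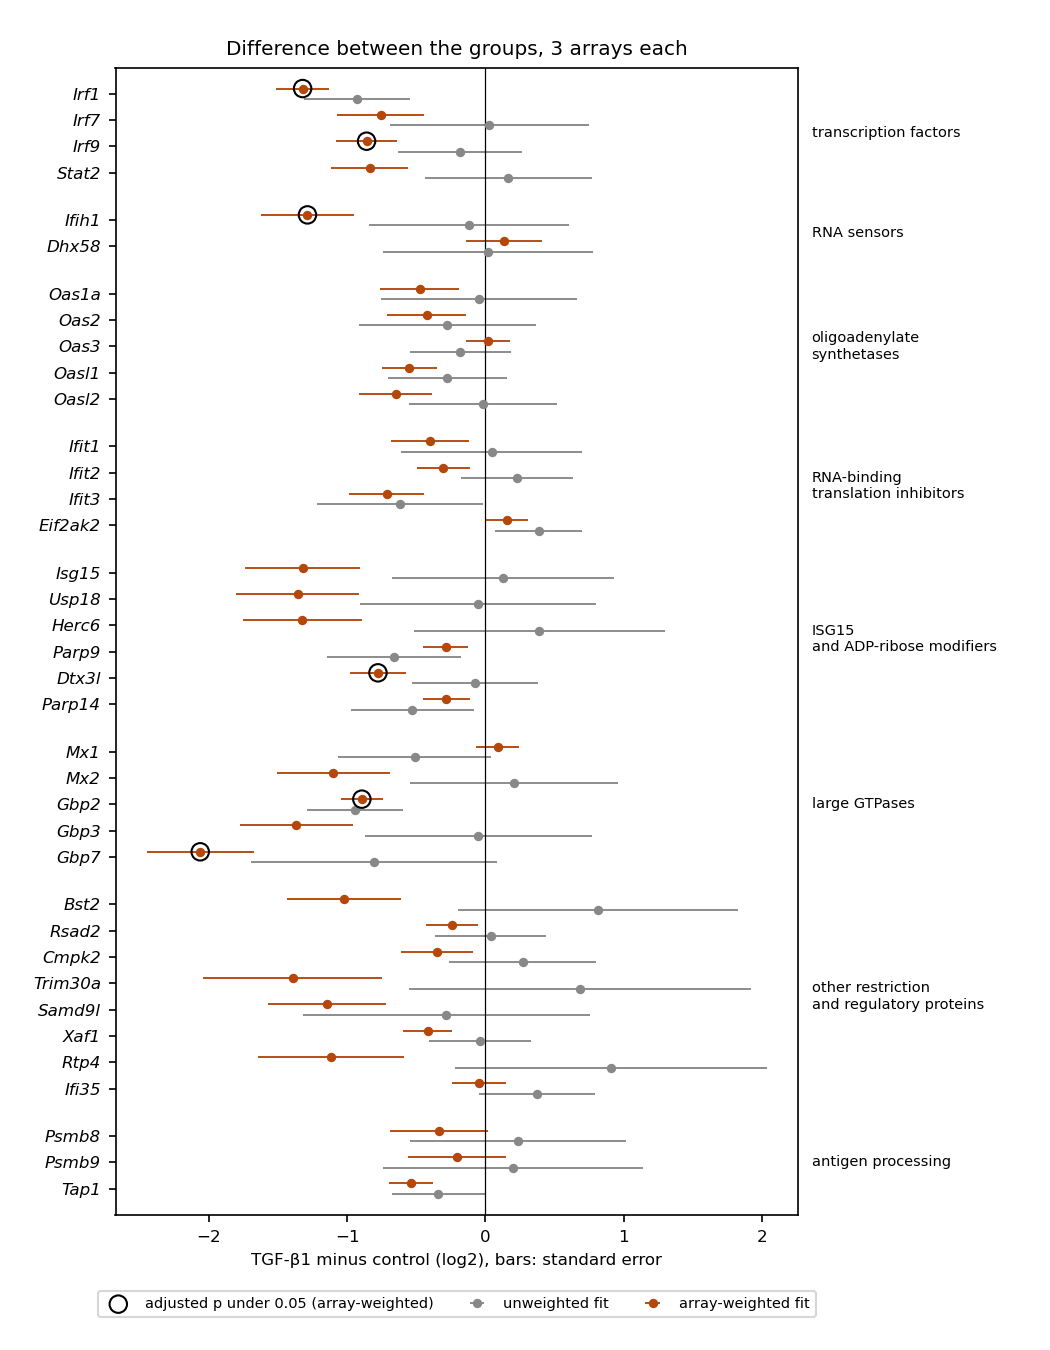
Difference TGF-β1 minus control (log2) for each of the 37 measured interferon-stimulated genes, with all arrays weighted equally and with array weights; bars are the standard errors of the limma fits. The 6 genes that passed with array weights lie between -2.06 and -0.78, and none passed with equal weights.

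The transcription factors of the set drive the other members. Irf1, which answers interferon-γ and binds ISRE-like sites, measured 8.80, 9.44 and 8.31 in the controls and 8.06, 7.71 and 7.99 with TGF-β1. All 3 treated arrays lay below all 3 controls, the group means being 8.85 ± 0.56 and 7.92 ± 0.19 (SD, n = 3 each). Irf1 fell by 1.32 ± 0.19 (SE) in the array-weighted fit (limma, adjusted p = 0.0022) and by 1.23 without control 3 and TGF-β1 3 (adjusted p = 0.0492), while the equal-weight difference of -0.93 ± 0.38 did not pass (adjusted p = 0.776). TGF-β1 3 lay between TGF-β1 1 and 2 for Irf1.

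Irf9, the DNA-binding part of ISGF3, measured 8.06, 8.73 and 7.84 in the controls and 7.55, 7.75 and 8.78 with TGF-β1. TGF-β1 1 and 2 lay below controls 1 and 2, but TGF-β1 3 lay just above the highest control, so the groups overlapped. Irf9 fell by 0.86 ± 0.22 with array weights (adjusted p = 0.0366) and was at -0.74 when control 3 and TGF-β1 3 were left out (adjusted p = 0.160). Stat2, which binds Irf9 in ISGF3, measured 7.74, 8.97 and 6.67 in the controls and 7.86, 7.57 and 8.45 with TGF-β1, a weighted difference of -0.84 ± 0.28 that did not pass (adjusted p = 0.104). Irf7, the factor that amplifies type I interferon production, stood at 4.95, 5.60 and 5.52 in the controls and at 4.53, 4.51 and 7.11 with TGF-β1. The 2 groups overlapped because of that array.

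Among the sensors of viral RNA, Ifih1 (MDA5), which recognises long double-stranded RNA, measured 6.74, 7.85 and 6.37 in the controls and 6.21, 5.99 and 8.40 with TGF-β1. The highest and the lowest value both came from treated arrays. Ifih1 fell by 1.29 ± 0.33 in the array-weighted fit (adjusted p = 0.0410) and was at -1.19 without control 3 and TGF-β1 3 (adjusted p = 0.122). Dhx58 (LGP2), which modulates the other sensors, was at 5.20, 5.36 and 7.17 in the controls and 5.59, 4.92 and 7.28 with TGF-β1, with a weighted difference of 0.13 ± 0.28 (adjusted p = 0.852). RIG-I itself, under the symbol Ddx58, measured 7.84, 7.66 and 5.05 in the controls and 7.78, 7.94 and 8.40 with TGF-β1, and its weighted difference of 0.18 ± 0.17 did not pass either (adjusted p = 0.635).

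The oligoadenylate synthetases make the short adenylate chains that activate RNase L. Of the 5, 0 passed with array weights (3.44% of all genes passed lower and 3.45% higher). A count of 0 among so few genes says little about a family. Oas1a measured 5.29, 5.72 and 6.43 in the controls and 5.09, 4.84 and 7.36 with TGF-β1, and Oasl2 measured 5.68, 6.58 and 6.17 and then 5.65, 5.51 and 7.23. Both were lowest in TGF-β1 2 and highest in TGF-β1 3. Oas3 was the exception, between 3.83 and 4.83 in the controls and 3.98 and 4.29 with TGF-β1, and the only member below the other treated arrays in TGF-β1 3, by -0.19. The weighted differences of the family ran from -0.65 in Oasl2 and -0.55 in Oasl1 to -0.47 in Oas1a, -0.43 in Oas2 and 0.02 in Oas3.

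The proteins that bind viral RNA and block its translation gave 0 calls among 4 (3.44% of all genes passed lower and 3.45% higher). Ifit1, which grips RNA lacking the host's cap methylation, measured 5.0, 5.74 and 6.27 in the controls and 5.06, 4.97 and 7.12 with TGF-β1. Ifit3, its partner, measured 6.08, 7.08 and 7.97 in the controls and 6.16, 5.79 and 7.32 with TGF-β1. In both, control 3 and TGF-β1 3 were the 2 highest arrays. Ifit2, which lies next to Ifit3 in the genome, stayed between 4.62 and 5.18 in the controls and reached 5.79 in TGF-β1 3. Eif2ak2, the kinase PKR that halts translation when it meets double-stranded RNA, varied little, from 7.02 to 7.48 in the controls and 7.40 to 7.82 with TGF-β1, and was among the 4 members with a weighted difference above 0 (0.16).

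The ISG15 system attaches a ubiquitin-like protein to its targets. Isg15, the modifier, measured 5.73, 7.20 and 5.47 in the controls and 5.09, 5.78 and 7.92 with TGF-β1. Usp18, the protease that removes it and also dampens the type I receptor, measured 5.82, 7.51 and 6.40 and then 5.43, 5.72 and 8.43. Herc6, the ligase that attaches it in mice, measured 5.96, 7.58 and 5.07 and then 5.52, 5.91 and 8.36. These 3 genes ran in parallel over the arrays, with control 2 and TGF-β1 3 high and the other arrays low. Their weighted differences were -1.32 ± 0.42 for Isg15, -1.36 ± 0.44 for Usp18 and -1.32 ± 0.43 for Herc6, and none passed (adjusted p = 0.0878, 0.0984 and 0.0955).

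Dtx3l, a ubiquitin ligase that works as a pair with the ADP-ribose-binding protein Parp9, measured 6.86, 7.42 and 6.38 in the controls and 6.38, 6.51 and 7.55 with TGF-β1. Dtx3l fell by 0.78 ± 0.20 with array weights (adjusted p = 0.0422) and was at -0.70 without control 3 and TGF-β1 3 (adjusted p = 0.143). Parp9 and Parp14 are its neighbours in the genome. Parp9 lay between 4.34 and 4.68 with TGF-β1 and Parp14 between 5.44 and 5.94, both were highest in control 3 (6.20 and 7.13), and neither passed.

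Guanylate-binding proteins are large GTPases that coat and break open the membranes around intracellular microbes, and they answer interferon-γ strongly. Gbp2 measured 7.31, 7.07 and 7.72 in the controls and 6.15, 6.32 and 6.80 with TGF-β1, with every treated array below every control. Gbp2 fell by 0.89 ± 0.15 with array weights (adjusted p = 0.0055) and by 0.95 without control 3 and TGF-β1 3 (adjusted p = 0.0339), and its equal-weight difference was -0.94 ± 0.35 (adjusted p = 0.776). Gbp7 measured 7.15, 8.08 and 7.09 in the controls and 5.65, 5.47 and 8.80 with TGF-β1. It had both the lowest weighted difference of the members, with a fall by 2.06 ± 0.39 (adjusted p = 0.0089), and a TGF-β1 3 value above all controls, 9.44-fold over the mean of TGF-β1 1 and 2. Without control 3 and TGF-β1 3 Gbp7 fell by 2.06 (adjusted p = 0.0238), and with array weights but without control 3 alone it did not pass (adjusted p = 0.0837).

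Gbp3, the gene next to Gbp7, measured 5.83, 7.26 and 6.04 in the controls and 5.22, 5.58 and 8.17 with TGF-β1. As for Isg15, control 2 and TGF-β1 3 were its 2 highest arrays, and its weighted difference of -1.37 ± 0.41 did not pass (adjusted p = 0.0737). The Mx proteins are GTPases that trap incoming viral particles. Mx2 measured 4.89, 6.70 and 4.75 in the controls and 5.05, 4.89 and 7.03 with TGF-β1 and did not pass (adjusted p = 0.145), while Mx1 lay between 4.16 and 4.58 in every array but control 3, where it was at 6.15. Cross-hybridisation among such close relatives (the Gbp, Oas, Ifit and Mx families) was not tested here.

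The 3 largest excesses of TGF-β1 3 were among the remaining antiviral genes. Of these 8, 0 passed (3.44% of all genes passed lower and 3.45% higher). Trim30a, a ubiquitin ligase that restrains NF-κB signalling, measured 4.26, 6.56 and 4.69 in the controls and 3.96, 4.91 and 8.70 with TGF-β1. Samd9l, which blocks translation, measured 4.66, 5.33 and 6.16 and then 3.67, 4.03 and 7.61. Rtp4, a chaperone of G-protein-coupled receptors, measured 4.80, 6.61 and 4.13 and then 4.66, 5.01 and 8.59. In all 3 genes TGF-β1 3 was the highest array, while TGF-β1 1 and 2 lay below the lower quartile of their arrays, so no fold is given. The sign of the difference then turned with the weighting: Trim30a was at 0.68 with equal weights and -1.39 ± 0.65 with array weights (adjusted p = 0.255), and Rtp4 at 0.91 and -1.12 ± 0.53 (adjusted p = 0.265).

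Bst2 (tetherin), which holds budding virus at the cell surface, measured 7.62, 8.64 and 6.14 in the controls and 6.99, 7.42 and 10.43 with TGF-β1. It differed by 0.81 with equal weights and by -1.02 ± 0.41 with array weights, and passed in neither fit (adjusted p = 0.184 with weights). Rsad2 (viperin), which makes a chain-terminating nucleotide, and its genome neighbour Cmpk2, a nucleotide kinase, reached 5.87 and 7.25 in TGF-β1 3 and were at 4.74 to 5.01 and 5.43 to 5.77 in the other treated arrays. Ifi35 was at 7.68 to 8.07 in the controls, 7.78 and 7.98 in TGF-β1 1 and 2 and 9.06 in TGF-β1 3. Xaf1, a promoter of cell death, reached 6.57 in TGF-β1 3 and lay between 5.54 and 6.18 in the other arrays.

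Psmb8 and Psmb9 are subunits of the immunoproteasome, which cuts peptides for class I molecules, and Tap1 carries those peptides into the endoplasmic reticulum. Psmb9 measured 5.65, 5.70 and 7.21 in the controls and 5.32, 5.29 and 8.55 with TGF-β1, and Psmb8 measured 5.74, 6.84 and 7.54 and then 5.95, 6.31 and 8.57. Both were highest in TGF-β1 3 and next highest in control 3. Tap1 measured 7.48, 7.83 and 7.81 in the controls and 7.18, 7.13 and 7.79 with TGF-β1, a smaller range, and its weighted difference of -0.54 ± 0.16 did not pass (adjusted p = 0.0676). Psmb9 and Tap1 are transcribed away from each other from starts 226 bases apart, so their promoter windows share 275 bases. TGF-β1 3 stood 9.53-fold above the mean of TGF-β1 1 and 2 for Psmb9 and 1.55-fold above it for Tap1. In TGF-β1 1 and 2 Psmb9 was close to the lower quartiles of those arrays (5.15 and 5.11), so its fold is uncertain. The role of the shared bases was not tested.

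Arrays of the same group differed from each other across most of the set. TGF-β1 3 minus the mean of TGF-β1 1 and 2 had a median of 1.65 over the members, from -0.19 in Oas3 to 4.26 in Trim30a, and was above 1 for 26 of the 37 where 7.05% of all genes were. Control 2 minus control 1 had a median of 0.67, from -0.24 in Gbp2 to 2.31 in Trim30a, and was above 1 for 12 members where 0.528% of all genes were. The order of the arrays held under other scalings: TGF-β1 3 was highest for 25 members after quantile normalization and for 27 after centring, and control 2 exceeded control 1 for 35 in both.

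These 2 contrasts share no array, and the members that were high in one tended to be high in the other. Over the 37 members, Pearson's r between them was 0.629 and Spearman's rho 0.625, against 0.173 and 0.116 over all genes. Both correlations run across genes measured on the same few arrays, and genes are not independent replicates. Trim30a, Rtp4, Usp18, Herc6, Isg15, Mx2 and Gbp3 were high in both contrasts, whereas Irf1, Gbp2, Oas3, Mx1, Parp9, Parp14 and Eif2ak2 differed by -0.19 to 0.57 between TGF-β1 3 and the other treated arrays. The median excess of TGF-β1 3 was 2.20 in members with an ISRE in the promoter window (n = 14), 1.18 in those with a window but no ISRE (n = 15) and 1.69 in those without a window (n = 8), and TGF-β1 3 was the highest array in 10 of 14, 13 of 15 and 4 of 8.

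**Figure D3:**
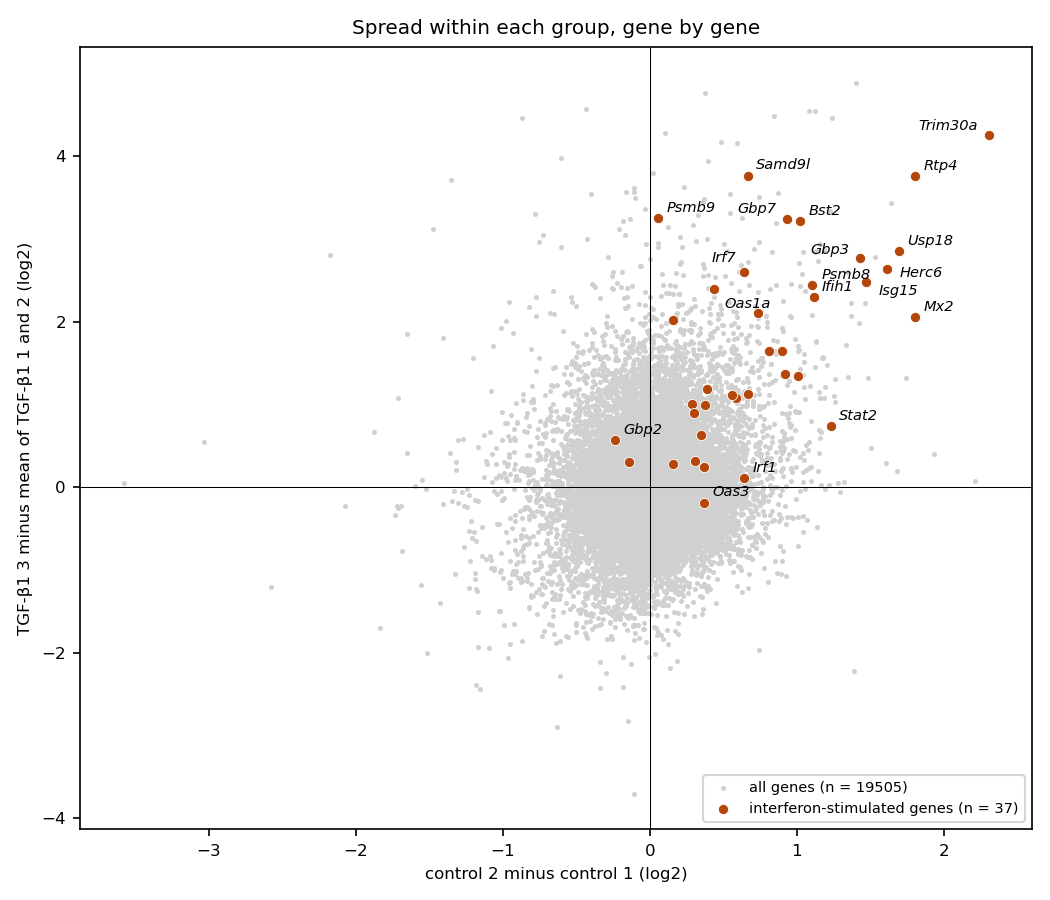
Difference between arrays of the same group for each gene: control 2 minus control 1 on the horizontal axis and TGF-β1 3 minus the mean of TGF-β1 1 and 2 on the vertical axis, both on the log2 scale, for all 19505 genes (grey) and the 37 measured interferon-stimulated genes (orange). The interferon-stimulated genes extend to the upper right, up to Trim30a at 2.31 and 4.26.

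The rest of the pathway was read from lists of other genes. Of 19 interferon ligands, 0 rose and 0 fell with array weights (3.45% and 3.44% of all genes did). Control 3 was the highest array for 18 of them (94.7%, against 51.9% of all genes). The smallest p was that of Ifna14, an interferon-α, at 0.34 ± 0.17 (adjusted p = 0.283). Ifnb1 (interferon-β) lay between 4.81 and 5.01 in every array but control 3, where it was at 6.08, and Ifng (interferon-γ) between 4.46 and 5.05. Outside control 3 these levels lie below the lower quartile of the arrays (5.11 to 5.15), where an order of arrays is not informative. In control 3 the lower quartile was itself higher, at 5.79, with Ifng below it and Ifnb1 little above. Whether the ligand values of control 3 are signal was not tested. Of 10 receptors, kinases and Stat proteins, 0 rose and 1 fell (10%): Stat3, the main transducer of the interleukin-6 family, measured 11.29, 11.18 and 7.44 in the controls and 10.22, 10.25 and 10.73 with TGF-β1, a fall by 0.93 ± 0.18 (adjusted p = 0.0104). The receptor chains Ifnar1 and Ifnar2 were at 8.82 to 8.93 and 10.60 to 10.82 in controls 1 and 2 and at 8.16 to 8.49 and 10.61 to 11.39 with TGF-β1. Ifngr1, of the interferon-γ receptor, was at 6.98 to 7.05 with TGF-β1, just below 7.21 and 7.30 in controls 1 and 2.

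Of 21 genes that sense nucleic acids and induce interferon, 1 fell (4.76%, close to the 3.44% of all genes), namely Trim25, the ubiquitin ligase that activates RIG-I. Trim25 measured 8.36, 8.72 and 8.25 in the controls and 7.34, 7.64 and 8.51 with TGF-β1, a fall by 1.11 ± 0.19 (adjusted p = 0.0053). Irf3, which starts interferon-β transcription, was at 9.10 and 9.15 in controls 1 and 2 and 9.02 to 9.81 with TGF-β1. Of 17 negative regulators, 1 fell (5.88%): Adar, which edits double-stranded RNA so that sensors ignore it, measured 9.92, 10.31 and 7.26 in the controls and 9.31, 9.24 and 9.32 with TGF-β1, a fall by 0.90 ± 0.17 (adjusted p = 0.0097) that did not pass with control 3 and TGF-β1 3 left out (adjusted p = 0.0575). Socs1, which inhibits Jak kinases, was at 6.37 to 7.46 in the controls and 5.89 to 6.33 with TGF-β1. None of these lists had a gene that passed with equal weights.

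Another 73 interferon-stimulated genes outside the 37 were listed. TGF-β1 3 was the highest array for 40 of them (54.8%, against 19.1% of all genes) and control 2 exceeded control 1 for 65 (89.0%, against 52.4%). With array weights 7 fell (9.59%, against 3.44% of all genes) and 2 rose (2.74%, below the 3.45% of all genes). Cxcl10, a chemokine that draws T cells, measured 7.40, 7.71 and 5.57 in the controls and 6.66, 6.08 and 7.16 with TGF-β1, a fall by 1.12 ± 0.21 (adjusted p = 0.0079). Casp4 (caspase-11), which senses bacterial lipopolysaccharide in the cytosol, measured 8.12, 8.49 and 6.58 and then 6.50, 6.22 and 9.84, a fall by 1.78 ± 0.38 (adjusted p = 0.0169). Parp12 fell by 1.63 ± 0.37 (adjusted p = 0.0215) although it was at 10.31 in TGF-β1 3 and 4.65 in control 3, its equal-weight difference was 0.83, and it did not pass with control 3 and TGF-β1 3 left out (adjusted p = 0.0559). The 2 that rose were Slfn9, by 0.91 ± 0.16 (adjusted p = 0.0067), and the exonuclease Isg20, by 1.46 ± 0.30 (adjusted p = 0.0131). Isg20 measured 6.93, 6.91 and 7.25 in the controls and 8.73, 7.54 and 9.52 with TGF-β1, so every treated array lay above every control, but it did not pass with control 3 and TGF-β1 3 left out (adjusted p = 0.128).

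The class I presentation genes beyond Psmb8, Psmb9 and Tap1 gave 0 calls among 18 (3.44% of all genes passed lower and 3.45% higher). TGF-β1 3 was their highest array in 13 (72.2%, against 19.1% of all genes). B2m, the shared light chain of class I molecules, measured 10.17, 10.72 and 7.80 in the controls and 9.37, 9.62 and 11.97 with TGF-β1. Its order over the arrays was close to that of Bst2, and its weighted difference of -0.96 ± 0.32 did not pass (adjusted p = 0.101). The smallest p in the list was that of H2-T23, a nonclassical class I gene, at 0.52 ± 0.15 (adjusted p = 0.0609). The heavy chain gene H2-K1 reached 11.24 in TGF-β1 3 against 9.47 to 10.05 in the other arrays. The immunoproteasome subunit Psmb10 was at 8.81 in TGF-β1 3 and 6.72 to 7.59 elsewhere, while the constitutive subunits Psmb6 and Psmb7 differed less, at 11.61 and 11.14 in TGF-β1 3 and 10.89 to 11.09 and 10.66 to 10.75 in the other arrays apart from control 3. Psmb5 has no probe set of that symbol and is not analysed here.

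Some markers of immune cells were high in TGF-β1 3, and so were some markers of other cell types. Its list median above controls 1 and 2 was 0.67 for macrophage, 0.69 for endothelial and 0.80 for epithelial markers. The epithelial markers were also raised in TGF-β1 1 and 2, at 0.59 and 0.74. In those arrays the macrophage markers were at -0.30 and -0.21 and the endothelial markers at -0.13 and -0.03. TGF-β1 3 was the highest array in 4 of 8 endothelial and 7 of 12 epithelial markers (50% and 58.3%, against 19.1% of all genes). The summed linear level of 13 macrophage markers, on the log2 scale, was 10.26 to 10.96 in the controls and 10.07 to 11.31 with TGF-β1. TGF-β1 3 exceeded controls 1 and 2 and TGF-β1 1 and 2 in 11 of the 13 (84.6%, against 31.2% of all genes). It was the highest array in 6 (46.2%, against 19.1%). Control 3 was highest in another 6 (46.2%, below the 51.9% of all genes). Aif1 differed most, at 6.51 in TGF-β1 3 and 3.36 to 4.18 elsewhere, whereas Csf1r, the receptor macrophages need to survive, was at 7.52 in TGF-β1 3 and 7.21 to 7.87 elsewhere. The 9 neutrophil and mast cell markers had the largest list median of the cell types in TGF-β1 3, 1.95 above controls 1 and 2. TGF-β1 3 was the highest array in 5 of them (55.6%, against 19.1% of all genes). S100a8 was at 7.40 there and 3.67 to 4.31 elsewhere, and the mast cell protease Cpa3 at 8.42 and 4.43 to 5.17, whereas Elane was lowest there, at 5.61, and Mpo, at 5.38, lay within the 5.35 to 5.54 of controls 1 and 2 and TGF-β1 1 and 2. The summed level of that list, carried mostly by Kit, was 10.19 to 12.03 in the controls and 11.92 to 12.49 with TGF-β1. The 6 plasmacytoid dendritic cell markers summed to 11.33 to 13.31 in the controls and 12.63 to 13.05 with TGF-β1, with a list median of 0.04 in TGF-β1 3, where Ly6d was highest, at 9.20, and Siglech lowest, at 4.94. The 10 lymphocyte markers summed to 8.15 to 9.46 in the controls and 8.01 to 8.16 with TGF-β1. No value of the table was 0. The part of any of these cells in the pattern of the interferon-stimulated genes was not tested.

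**Figure D4:**
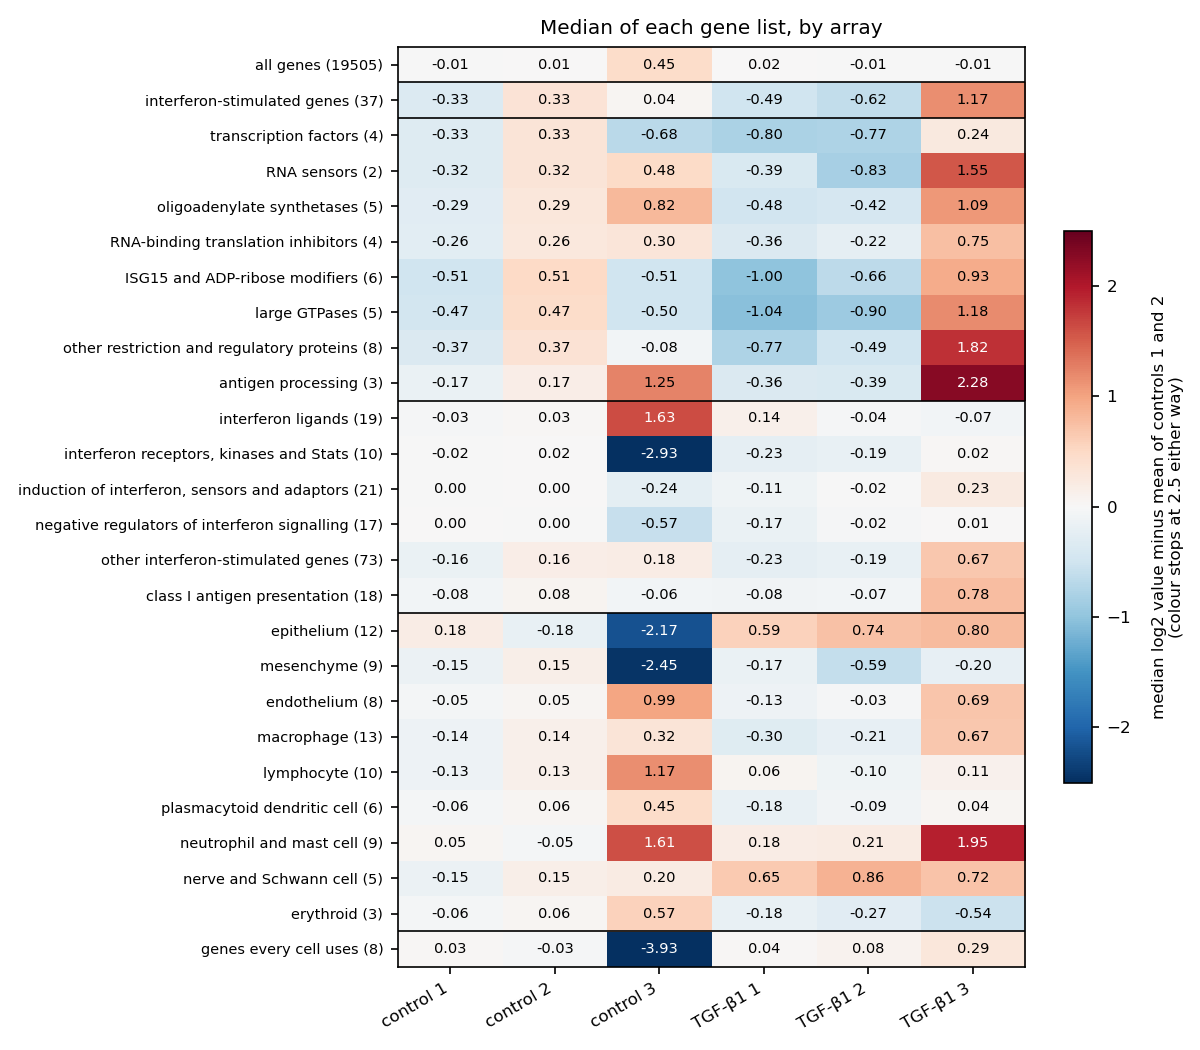
Median over the genes of each list, per array, of the difference from that gene's mean in controls 1 and 2 (log2); rows are the interferon-stimulated genes, the pathway lists and the cell type markers, and colour and number give the median. In TGF-β1 3 the interferon-stimulated genes stood at 1.17, the neutrophil and mast cell markers at 1.95 and the epithelial markers at 0.80. The macrophage markers stood there at 0.67 and the lymphocyte markers at 0.11. In TGF-β1 1 and 2 the epithelial markers stood at 0.59 and 0.74. In control 3 the genes that every cell uses stood at -3.93.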

How the data were processed

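Expression was measured in 6 samples, 3 per group, placed in their groups from the labels. The authors deposited log2 expression values per probe set. Per the submitters' processing notes RMA was used; its version and the genome build are not given in the sources. Arrays have no read depth, and their number limits the precision. Of 22206 probe sets, 19572 had 1 symbol in the platform annotation, 0 had several and 2634 had none there. Each gene was taken from its probe set of highest mean, which left out 67 and gave 19505 genes. The members and lists were chosen with earlier results of these data known.

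Group differences came from limma 3.58.1 (R 4.3.3; lmFit, eBayes, two-sided, Benjamini-Hochberg over all genes, threshold 0.05), with equal weights and with arrayWeights. The weights' estimation stopped before its convergence tolerance and takes them as known afterwards, which makes those p-values too small. "Rose" and "fell" are used for genes that passed the weighted fit, because the equal-weight fit passed 0. The fits were tested on simulated data in which the noise of each gene was independent. Such data lack the shared shift of many members in TGF-β1 3, so they do not bear on this set's weighted calls. All measured members are named. From each pathway list the text names at most 3 genes per direction, taken by p among those past the threshold (where a list had none, its lowest p), plus a fixed set of symbols. Promoter windows came from RefSeq (GRCm38.p6) and were matched by symbol. Alternatives were quantile normalization, centring, a filter on dim genes, the mean of probe sets, other priors and weights, other thresholds, the replicate number as a block, and each array left out.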

Additional observations from a re-analysis of the deposited data

How the results depend on the processing

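With equal weights, the count of members that passed was 0 under every alternative run except without control 3 and TGF-β1 3, where it was 3. With array weights the count of 6, all lower, was 2 after quantile normalization (1.16% of all genes passed lower), 2 after centring (0.702%), 3 without control 3 and TGF-β1 3 (1.45%), 3 at a threshold of 0.01 (1.42%), 11 at 0.10 (5.62%), 3 with weights estimated gene by gene (2.21%) and 0 without weights (0%), against 3.44% for the count of 6. Leaving out the lowest 33.3% of genes gave 19 of the 22 members that remained, where 16.8% of all genes passed lower. Leaving out 1 array at a time gave 0 to 2, and the share of all genes that passed lower was then 0% to 1.53%. The mean of the probe sets gave 6, a trended and robust prior 4 and more iterations of the weights 6. A replicate block gave 22, where 6.57% of all genes passed lower, and 0 with equal weights; deviations of same-numbered arrays correlated at -0.07, -0.01 and -0.05 and no array correlated best with its own number, so the numbers are not taken to pair the samples. The median difference of -0.04 was 0.10 after quantile normalization and -0.62 to 0.32 with 1 array left out, so its sign was not stable. The members' median level had an SD of 1.20 over the TGF-β1 arrays. That SD is widened by TGF-β1 3, so staying within it says little. With 1 array left out, the weighted difference ran from -0.71 to 0.21 for Irf9, -1.04 to 0.56 for Ifih1, -0.66 to 0.18 for Dtx3l, -1.86 to 0.070 for Gbp7, -0.99 to 0.95 for Stat3, -0.83 to 0.70 for Adar, -1.06 to 0.0082 for Cxcl10, -1.73 to 0.077 for Casp4 and -1.41 to 1.29 for Parp12, while Irf1 (-1.17 to -0.62) and Gbp2 (-1.27 to -0.76) kept their sign. Without weights Stat3 was at 0.43, Adar at 0.13 and Parp12 at 0.83. The causes were not tested. Low signal limits 13 members below the lower quartile of both TGF-β1 1 and 2, among them Samd9l, Trim30a, Rtp4 and Irf7.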
